A study of Mus musculus with 4 samples.

Results

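The BTB-kelch genes of the mouse embryo were followed through the loss of the ubiquitin ligase COP1. Members were chosen by gene name, as every probe set whose single symbol was Klhl or Kbtbd followed by a number, which gave 75 probe sets of 42 genes among 45037 probe sets and 18193 named genes. No measured value entered that choice of members, but the family itself was selected on the difference between the Cop1-null and control arrays, in which Kbtbd8 was already known to be among the genes of greatest fall. The differences below are therefore a description of these 42 genes, and the fit's calls serve to sort them. The samples were whole embryos of embryonic day 9.5, hybridised to 4 Affymetrix arrays. RNA of 6 control embryos, which the titles call wild-type and the descriptions +/+ or +/-, was mixed into 1 pool and divided over control arrays 1 and 2, and RNA of 6 Cop-null embryos (titled Cop1KO) was mixed and divided over null arrays 1 and 2. The 2 arrays of a genotype are portions of 1 pool, so every SD, SE and p-value here measures the spread between portions and not between embryos, and any heterozygotes in the control pool carry 1 null allele. Over the 75 probe sets the median gap between the 2 portions was 0.10 log2 units (control) and 0.08 (null), and the largest gap was 0.48, that of Klhl35 in the null pool.

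BTB-kelch proteins are interchangeable adaptors of the CUL3 ubiquitin ligase. The BTB domain holds the CUL3 scaffold, the kelch repeats fold into a propeller that binds the target, and the RING subunit RBX1 brings the ubiquitin-charged enzyme. Attachment of NEDD8 to CUL3 switches the ligase on, and each adaptor directs it to its own targets in the cell cycle, secretion, the cytoskeleton, muscle or neural crest. COP1 itself works with another scaffold, CUL4, and is no member of this family.

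Over the 45037 probe sets tested, the 4 arrays had median log2 expression values between 6.03 and 6.09. Cop1 read 11.35 and 11.26 in the control portions against 9.67 and 9.77 in the null portions. Whether its probe set covers the deleted sequence was not given, so this fall does not measure the loss of that sequence.

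Of the 42 BTB-kelch genes, 9 were called lower and 3 higher in the null pool, and 30 were not called. A call here means a limma adjusted p under 0.05 (Benjamini-Hochberg over all probe sets) and a difference of at least 1.5-fold, that is 0.585 on the log2 scale, in the probe set that stands for the gene, the one with the highest mean. Over all 18193 named genes 8.06% were called lower and 3.58% higher. The 9 genes called lower were Kbtbd8, Klhl42, Klhl23, Klhl14, Klhl25, Kbtbd4, Klhl29, Klhl12 and Klhl20, and the 3 called higher were Kbtbd11, Klhl24 and Klhl7. Their adjusted p-values ran from 0.000631 to 0.013 (limma). The median difference of the 42 genes was -0.22 against -0.02 over all genes, and 71.4% of them had a negative difference against 54.1% of all genes. These counts move with the scaling of the arrays. After centring each array on its median they were 12 lower and 2 higher, with the median of all genes at -0.09. After centring on the poly-A spikes they were 17 lower and 2 higher, with the median of all genes at -0.28. The shares of all genes called under these scalings are not given here, so these counts have no background beside them. Counted by probe set, 10 of 75 were called lower and 9 higher, where 6.96% and 6.76% of all probe sets were. Both null arrays lay below both control arrays in 35 of the 75 (46.7%) and above them in 25 (33.3%), against 32.7% and 32.6% of all probe sets.

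**Figure D1:**
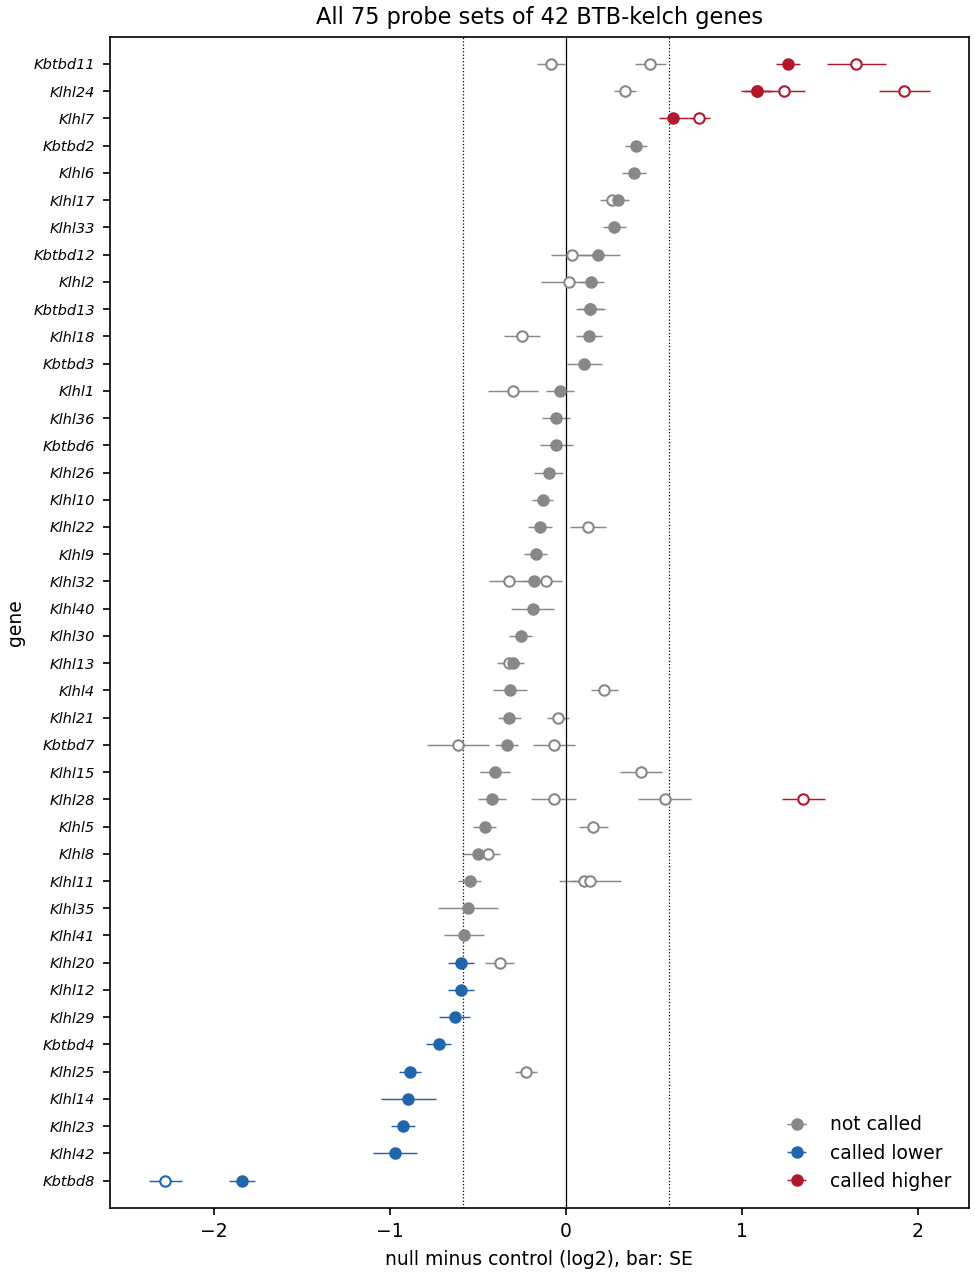
Difference between the null and control pools (log2, horizontal axis) for each of the 75 probe sets of the 42 genes (rows), with filled points for the probe set that stands for the gene, open points for the others, bars for the SE and dotted lines at 1.5-fold. Kbtbd8 lies farthest to the left with both probe sets, and Klhl28 has 1 probe set called higher although the one that stands for it reads -0.42.

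Kbtbd8 had the greatest fall in the family. It encodes the adaptor that directs CUL3 to the nucleolar proteins TCOF1 and NOLC1 during specification of the neural crest. Probe set 1433902_at, which stands for the gene, read 7.58 and 7.55 in the control portions and 5.67 and 5.79 in the null portions, and the second (1441275_at) read 6.53 and 6.75 against 4.37 and 4.37. Both null portions lay below both control portions in either probe set. The differences were -1.84 (SE 0.07), which is 3.58-fold, and -2.27 (SE 0.09). The family was selected with this fall already known, so the separation adds no support. The transcripts of the KBTBD8 targets differed far less, Tcof1 by -0.07 and Nolc1 by -0.21, both uncalled. Among 6 measured neural crest markers 1 was called lower, Tfap2b (-1.29), and none higher. The others read -0.47 (Sox10), -0.03 (Foxd3), 0.15 (Ets1), 0.23 (Twist1) and 0.35 (Tfap2a), and the median of the 6 was 0.06. Tfap2b has 1 other probe set, without a call, and of the 3 others of Ets1 1 was called higher. The mean level of the 6 markers was 8.61 and 8.63 in the control portions and 8.44 and 8.44 in the null portions. Their part in the Kbtbd8 difference was not tested, and in RNA of whole embryos fewer cells of a type cannot be told apart from less RNA per cell.

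Klhl42 encodes an adaptor for the microtubule-severing protein katanin. It read 7.59 and 7.51 in the control portions and 6.42 and 6.75 in the null portions, a difference of -0.97 (SE 0.13). Katna1, the katanin subunit gene, had means of 9.57 (control) and 9.66 (null), without a call. Klhl23 read 8.72 and 8.81 against 7.85 and 7.84, and fell by 0.92 (SE 0.07). The 2 portions of each pool lay close together for Klhl23, whereas the null portions of Klhl42 stood further apart than its control portions.

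Klhl14, whose protein binds torsin A, read 5.00 and 4.57 in the control portions and 3.84 and 3.94 in the null portions. Its difference of -0.89 (SE 0.15) had the widest error of the 12 called genes, and its null readings lay below the lower quartile of all probe sets on those arrays. Klhl25 directs CUL3 to the translation repressor 4E-BP1 and to ATP citrate lyase. It read 8.72 and 8.67 against 7.82 and 7.81 in the probe set that stands for it, a difference of -0.88 (SE 0.06), and its second probe set differed by -0.23 without a call. Kbtbd4, which is mutated in some medulloblastomas, read 8.69 and 8.56 in the control portions and 7.89 and 7.92 in the null portions (-0.72, SE 0.07).

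The other falls lay close to the fold limit. Klhl29 read 7.53 and 7.71 against 6.95 and 7.03 (-0.63, SE 0.09). Klhl12 encodes the adaptor that modifies the coat protein SEC31 when large cargo such as procollagen leaves the endoplasmic reticulum, and it read 8.79 and 8.92 against 8.28 and 8.24 (-0.59, SE 0.07). Klhl20, whose targets include the death-associated kinase DAPK1, the nuclear body protein PML and the autophagy kinase ULK1, read 7.85 and 7.85 against 7.33 and 7.19 (-0.59, SE 0.07). For these 3 genes the arrays of the 2 pools did not overlap, but the genes were chosen by their difference, so this adds no support. Just outside the limit, and not called, stood Klhl41 (-0.577), an adaptor of skeletal muscle, Klhl35 (-0.56) and Klhl11 (-0.55). The other probe sets of Klhl11 went the other way, at 0.10 and 0.14, without a call. Klhl41 and Klhl35 were called lower without null replicate 2, with quantile normalization applied once more and with median or spike centring, and Klhl11 with median or spike centring.

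Kbtbd11 had the greatest rise. It read 9.71 and 9.61 in the control portions and 10.94 and 10.91 in the null portions, a difference of 1.26 (SE 0.07) or 2.40-fold. A second of its 4 probe sets was also called higher (1.65), while the others read 0.48 and -0.09 without a call. Klhl24, an adaptor that controls the turnover of keratin 14 and is mutated in a blistering skin disease, read 8.48 and 8.57 against 9.66 and 9.56, which is 2.12-fold (log2 difference 1.09, SE 0.07). Of its 5 probe sets 4 were called higher, at 1.09, 1.24, 1.09 and 1.92, and the fifth was positive at 0.34 without a call. Klhl7, an adaptor gene mutated in retinitis pigmentosa, read 9.72 and 9.89 against 10.42 and 10.41 in the probe set that stands for it (0.61, SE 0.08) and differed by 0.76 in the other, also called. After poly-A spike centring, the Klhl7 difference was 0.35 without a call. For each of the 3 genes, both null arrays lay above both control arrays in the probe set that stands for the gene. The genes were chosen by the difference in that probe set, so this adds no support.

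**Figure D2:**
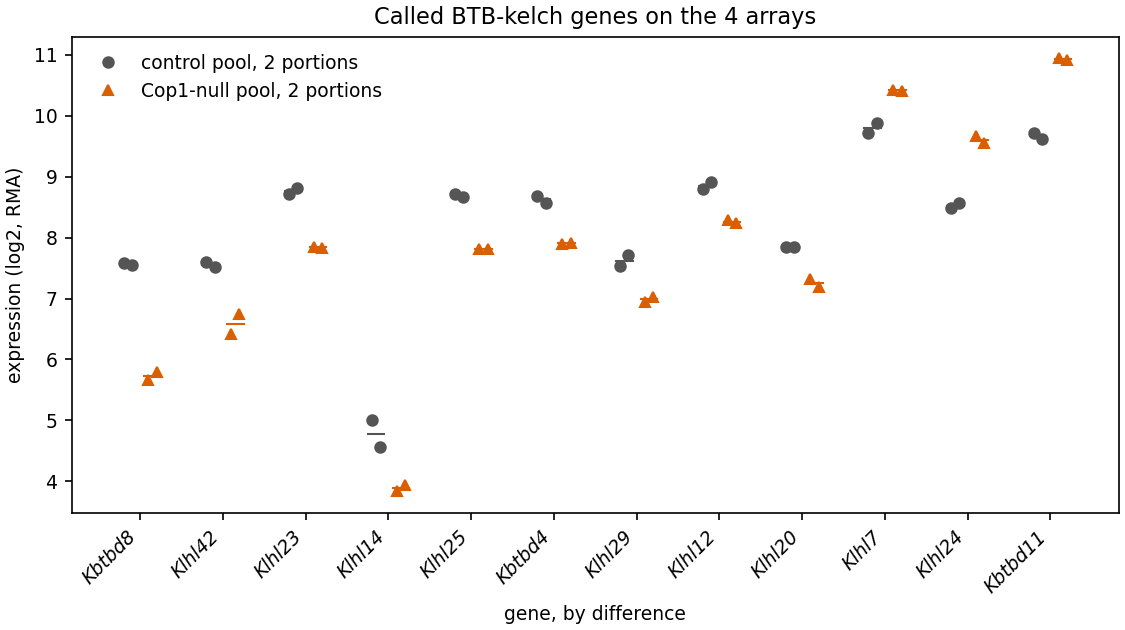
Log2 expression on each array (vertical axis) for the 12 called genes, ordered by difference, with circles for the 2 control portions, triangles for the 2 null portions and short lines for their means. The portions of the 2 pools do not overlap for any of the 12 genes, which were chosen by their difference. Both null arrays lie below both control arrays in 32.7% of all probe sets and above them in 32.6%. The control portions of Klhl14 (5.00 and 4.57) stand further apart than its null portions (3.84 and 3.94).

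Among the 30 genes without a call, differences ran from -0.58 (Klhl41) to 0.40 (Kbtbd2). Kbtbd2, the adaptor that removes the phosphoinositide 3-kinase subunit p85-alpha, read 10.03 and 10.02 in the control portions and 10.44 and 10.41 in the null portions. Klhl9 and Klhl13, paired adaptors that move Aurora B during mitosis, differed by -0.17 and -0.30. Klhl9 read 11.02 and 11.02 against 10.89 and 10.82, and Klhl13 read 10.04 and 10.08 against 9.78 and 9.75, so that the null portions were the lower ones in both genes. Klhl22, which acts on PLK1 and on the mTORC1 regulator DEPDC5, read 10.02 and 9.94 against 9.84 and 9.83 (-0.15). Kbtbd7, a partner of KBTBD6 against the Rac activator TIAM1, read 9.25 and 9.32 against 8.94 and 8.96 (-0.34). The name of that probe set marks it as able to share sequence with other transcripts. The other probe sets of Kbtbd7 differed by -0.61 (adjusted p = 0.0556, limma) and -0.07, without a call. Kbtbd6 differed by -0.05. Klhl5 read 8.89 and 8.96 against 8.48 and 8.45 (-0.46), and its second probe set differed by 0.16 without a call. Klhl10 (-0.13), a gene of spermatids, Klhl6 (0.39), a gene of B cells, and Klhl1 (-0.04), a gene of neurons, were not called either.

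Probe sets of 1 gene did not always agree. Of the 42 genes, 19 had 1 probe set and 23 had 2 to 5, and in 15 of these 23 all differences had 1 sign. Klhl28 was the clearest exception. The probe set that stands for it (1434861_at) read 8.13 and 8.24 against 7.71 and 7.81, whereas another (1453987_at) read 5.05 and 4.78 against 6.37 and 6.17, so that 1 differed by -0.42 without a call and the other by 1.35 with a call. The remaining 2 differed by 0.56 and -0.07. Klhl15, the adaptor of a PP2A regulatory subunit, differed by -0.40 in one probe set and 0.43 in the other, neither of them called. Which part of the transcript each probe set reads is not given in the sources used here. Of the 12 called genes 6 had several probe sets, and in 4 of them (Kbtbd8, Kbtbd11, Klhl24 and Klhl7) another one was called in the same direction.

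BTB-kelch genes that carry other names were not called. Keap1, the adaptor that degrades the antioxidant factor NRF2, differed by -0.29, Enc1, first known from the nervous system, by -0.57, Ivns1abp by -0.20, Ipp by -0.22 and Lztr1 by 0.06. Enc1 has 1 other probe set called lower and 1 called higher, and Lztr1 has 1 called lower. In the ligase core, Cul3 had means of 10.43 (control) and 10.54 (null) and Rbx1 of 6.16 and 6.59, neither of them called. Among 16 measured genes of CUL3, NEDD8 attachment and adaptor exchange, 4 were called lower and 0 higher, with a median of -0.31. Over all genes 8.06% were called lower and 3.58% higher, shares that also stand beside the counts of the lists below. The 4 called lower were Dcun1d4 (-1.06), Dcun1d2 (-0.91) and Dcun1d1 (-0.65), whose proteins help NEDD8 onto cullins, and Cand2 (-1.02), whose protein binds cullins that lack NEDD8. Of the 4 other probe sets of Dcun1d1, 2 were called lower, as was the 1 other of Cand2. The 1 other of Dcun1d2 was not called. Dcun1d3 (-0.11) and Dcun1d5 (-0.33) were not called, and Dcun1d5 has 1 other probe set called lower and 1 called higher. Dcun1d4 read 8.89 and 8.95 in the control portions and 7.82 and 7.89 in the null portions. By the adjusted p alone, 8 of the 16 would be lower and 1, Rbx1, higher.

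BTB adaptors without kelch repeats held 3 called lower and 1 higher among 26 measured genes (median -0.07). Btbd6, which acts in neuronal differentiation, differed by -0.86, Btbd10 by -0.85, Rhobtb1 by -0.69 and Zbtb16, a zinc finger repressor that also binds CUL3, by 0.92. Kelch genes without a BTB domain held 1 in each direction among 15, Lcmt2 (-0.79) and Klhdc1 (0.63), with a median of -0.13.

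A list of transcripts of targets and partners of the adaptors, with related genes such as Pik3r2, held 6 called lower and 2 higher among 30 measured (median -0.17). Eif4ebp1, which encodes the KLHL25 target 4E-BP1, rose from 10.16 to 11.58 (1.42, SE 0.06), and its 2 other probe sets were also called higher. Acly, the other KLHL25 target, differed by -0.41 without a call. Krt14, the keratin that KLHL24 acts on, read 5.60 and 5.73 in the control portions and 4.83 and 4.48 in the null portions (-1.01, SE 0.13). The name of that Krt14 probe set marks it as able to share sequence with other transcripts. Its reading on null array 2 lay close to the lower quartile of all probe sets there (4.465). Ulk1, a KLHL20 target, fell by 1.15 (SE 0.09), while Dapk1 (0.18) and Pml (-0.48) were not called. The KLHL12 targets Sec31a (-0.02) and Dvl1 (0.29) and the co-adaptors Pef1 (0.07) and Pdcd6 (-0.09) were not called. Nfe2l2, which encodes NRF2, rose by 0.79. The phosphoinositide 3-kinase subunit genes Pik3r2 (-1.24) and Pik3r1 (-0.72), the mitotic kinase gene Plk1 (-0.75) and the tubulin chaperone gene Tbcb (-0.75) fell. The 3 other probe sets of Pik3r1 and the 1 other of Nfe2l2 were not called, whereas Krt14 and Ulk1 each had 1 other called lower. Pik3r2, Plk1 and Tbcb had no other probe set. Of the genes in this list, Pik3r1 and Plk1 were named after their values were seen. All are transcripts, whereas the adaptors act on proteins, which were not measured.

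**Figure D3:**
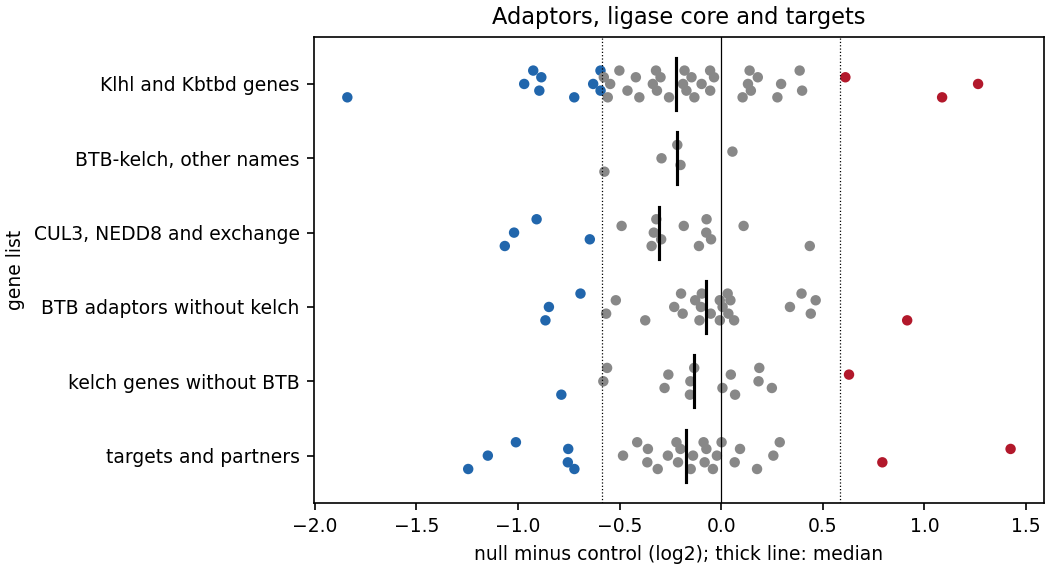
Difference between the null and control pools (log2, horizontal axis) for the genes of 6 lists (rows), with blue points called lower, red points called higher, grey points not called, thick lines at the list medians and dotted lines at 1.5-fold. The medians lie between -0.31 for CUL3, NEDD8 and exchange and -0.07 for BTB adaptors without kelch repeats.

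Some of the tissue markers were called, in both directions. Early neuron markers held 5 called lower of 7, with means of 9.26 and 9.26 in the control portions and 8.35 and 8.35 in the null portions. Their median was -0.78. Of 7 myotome markers 3 were called lower, with means of 6.79 and 6.70 against 6.29 and 6.18 and a median of -0.51. Myh3 (-0.51), Chrna1 (-0.14), Ckm (-0.09) and Actn2 (0.03) were not called. The muscle adaptor genes Klhl41 (-0.58) and Klhl40 (-0.19) were not called either. Endothelial markers held 3 called higher of 7, with means of 7.94 and 7.89 against 8.55 and 8.55 and a median of 0.37. Surface epithelium held 3 called higher of 7, with means of 8.52 and 8.53 against 9.05 and 9.03. The 3 were the keratins Krt19 (2.11), Krt18 (0.87) and Krt8 (0.78), whereas Epcam (-0.07), Cdh1 (0.11), Grhl2 (-0.08) and Esrp1 (-0.07) were not called, and the median of the 7 was 0.11. Heart markers held 2 called higher of 7, Nppa (1.49) and Myh7 (1.20), with means of 9.83 and 9.86 against 10.28 and 10.29 and a median of 0.16. Of 6 yolk sac markers 3 were called lower, with means of 8.17 and 8.24 against 7.36 and 7.47 and a median of -0.56. The 3 were Alb (-2.09), Ttr (-1.53) and Afp (-1.01), whereas Apoa1 (-0.01), Apob (0.05) and Rbp4 (-0.11) were not called. Of 6 primitive erythroid markers 1 was called lower, Klf1 (-0.79), with means of 11.79 and 11.79 against 11.58 and 11.63 and a median of -0.06, and of 4 decidua and placenta markers 0 were called by limma (smallest adjusted p = 0.265, and 0 at an unadjusted p under 0.05), with a median of 0.06 and means of 3.68 and 3.70 against 3.81 and 3.70. The part of such tissue differences in the BTB-kelch differences was not tested.

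Promoter sequences were read for the called members to show what lies at their starts, since genes of both directions were called. RefSeq promoters (GRCm38.p6) were found for 35 of the 42 genes, and the 250 bases before each start were searched on both strands for ACGTG, the core of hypoxia and E-box elements, TGACGTCA, the cAMP response element, TGANTCA, the AP-1 element, and TTGCATCA, a form of the ATF4 element. Capitals mark the matches, and lower case the rest. Kbtbd8 (chr6:95117630-95117879, plus strand) and Klhl7 (chr5:24100340-24100589, plus strand), the gene of greatest fall and the 1 gene called higher for which a promoter was given, held none of the 4. Klhl20 (chr1:161131480-161131729, minus strand) held ACGTG within a palindrome, and Klhl12 (chr1:134455281-134455530, plus strand) held the cAMP response element.
Kbtbd8: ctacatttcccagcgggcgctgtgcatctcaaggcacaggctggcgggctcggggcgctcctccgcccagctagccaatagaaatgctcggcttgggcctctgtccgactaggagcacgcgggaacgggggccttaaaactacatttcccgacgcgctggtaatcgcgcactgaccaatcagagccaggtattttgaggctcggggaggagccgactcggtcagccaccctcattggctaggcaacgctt
Klhl7: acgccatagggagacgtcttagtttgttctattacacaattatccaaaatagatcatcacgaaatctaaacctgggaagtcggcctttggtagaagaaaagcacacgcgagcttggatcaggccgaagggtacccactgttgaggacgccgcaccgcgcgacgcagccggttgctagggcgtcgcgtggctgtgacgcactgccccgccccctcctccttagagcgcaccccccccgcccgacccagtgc
Klhl20: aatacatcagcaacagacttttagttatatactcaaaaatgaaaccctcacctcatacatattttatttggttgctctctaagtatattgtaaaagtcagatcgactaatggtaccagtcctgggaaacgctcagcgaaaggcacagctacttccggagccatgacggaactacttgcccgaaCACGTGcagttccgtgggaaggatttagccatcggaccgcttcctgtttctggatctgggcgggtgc
Klhl12: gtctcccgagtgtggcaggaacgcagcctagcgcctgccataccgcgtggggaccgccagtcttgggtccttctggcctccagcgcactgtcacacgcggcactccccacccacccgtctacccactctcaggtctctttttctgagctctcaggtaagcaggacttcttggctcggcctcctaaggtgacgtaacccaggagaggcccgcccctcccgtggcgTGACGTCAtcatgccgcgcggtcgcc

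ACGTG was found in 4 of the 47 promoters of members (8.51%), those of Klhl20, Klhl22 and Klhl28, and in 16.6% of all 32851 promoters of the table. TGACGTCA was found in 1 member promoter (2.13%), that of Klhl12, and in 1.55% of all. TGANTCA was found in 3 (6.38%), those of Klhl13, Klhl21 and Klhl40, and in 6.75% of all, and TTGCATCA in 0 and in 0.79% of all. The member promoters had a median of 14 CG pairs in 250 bases, against 6 over all promoters. A match is only these letters, and no binding was measured.

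Kbtbd8, Kbtbd4, Klhl23, Klhl42, Kbtbd11 and Klhl24 were called at these limits in every alternative fit, over which Kbtbd8 ran from -2.10 to -1.78 and Klhl24 from 0.83 to 1.14. Some of these fits could not move a difference. The replicate block, the intensity trend and the removal of dim probe sets act on the p-value alone. Leaving out _s_at and _x_at probe sets changed nothing for these genes. Gene means left the differences of Kbtbd4, Klhl23 and Klhl42 as they were, since each has 1 probe set. Klhl12 missed a limit without control replicate 2 (-0.53) or null replicate 2 (-0.57), Klhl20 without null replicate 2 (-0.53), Klhl29 without control replicate 2 (-0.54) or null replicate 1 (-0.59, adjusted p = 0.0518, limma), Klhl14 without null replicate 1 (-0.85, adjusted p = 0.0832, limma) or null replicate 2 (-0.94, adjusted p = 0.0737, limma), and Klhl7 without control replicate 1 (0.53). Quantile normalization applied once more took the Klhl12 (-0.53) and Klhl20 (-0.56) differences under the fold limit, median centring that of Klhl7 (0.55), and the mean of all probe sets those of Klhl20 (-0.48) and Klhl25 (-0.56).

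**Figure D4:**
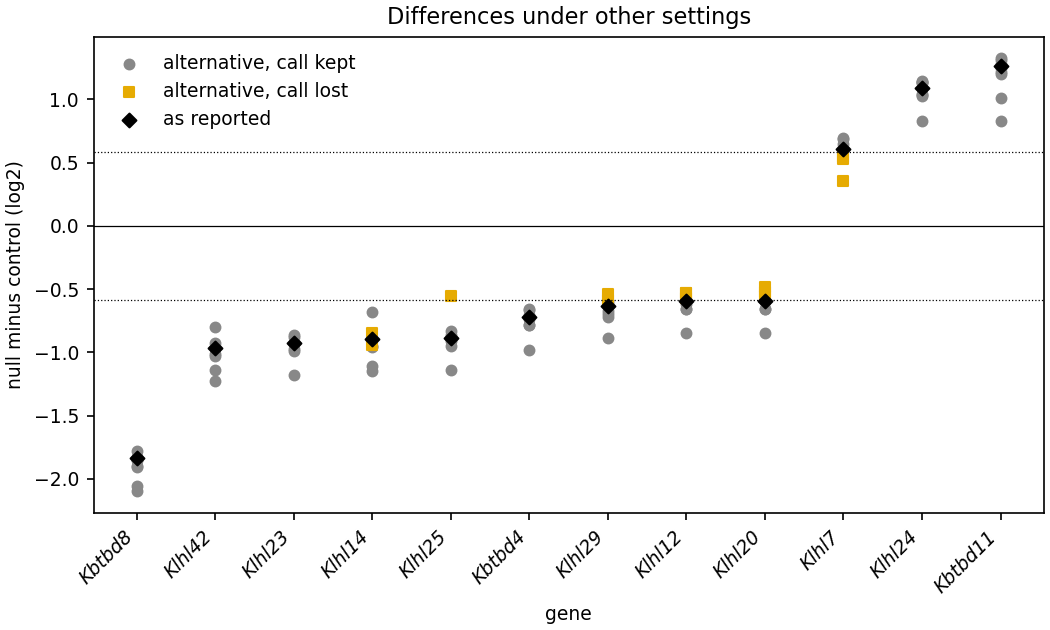
Difference between the null and control pools (log2, vertical axis) of the 12 called genes under each alternative fit, with black diamonds for the reported value, grey circles where the call was kept and yellow squares where it was lost. No difference changes sign, and the lost calls of falling genes lie between -0.59 and -0.48, except those of Klhl14 (-0.85 and -0.94), while those of Klhl7 lie between 0.35 and 0.55.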

How the data were processed

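The authors deposited 1 table of log2 expression values for the 4 arrays, computed by RMA (R package affy), as the labels list among the submitters' processing notes. Versions and probe mapping were not given. RMA gives all arrays 1 distribution of probe intensities, so differences in total RNA cannot be seen, and levels of different probe sets do not compare. Of 45101 probe sets, 64 Affymetrix controls were left out. The platform annotation gave 34945 probe sets 1 gene symbol each. The values were fitted as deposited with limma 3.58.1 in R 4.3.3 (lmFit, eBayes, genotype as the only term), with Benjamini-Hochberg adjustment over 45037 probe sets. The model was checked on simulated arrays with independent normal noise of the fitted spread between portions. Such a check cannot show error between embryos or pools. With 1 pool per genotype, precision about embryos cannot be given.

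The members, lists and tests were chosen with earlier results of these data known. By rule, array values are given for the called member genes and the 6 uncalled ones of highest control level, and from each list up to 6 called genes are named with Cop1, Cul3, Rbx1, Keap1 and Enc1. The array values of Klhl28, and the names Pik3r1, Plk1 and other genes of the lists, were added after their values were seen. Counts were recomputed with each array left out, a replicate block, 3 other scalings, no dim probe sets, an intensity trend, other call limits, gene means and no _s_at or _x_at probe sets. Portion numbers are not stated to pair arrays, and the portions' deviations correlated at 0.056. Sequences are RefSeq's; protein sequences were not used here.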

Additional observations from a re-analysis of the deposited data

How the results depend on the processing

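Calls for the 42 genes were 7 to 10 lower and 2 to 3 higher with any 1 array left out, where the lone array of a pool was assumed to vary like the others, and 8 to 11 and 8 to 10 of the 75 probe sets. The replicate block gave 9 and 3 genes, as without it. Poly-A spike centring gave 17 lower genes and 21 lower probe sets, and the spikes themselves read 7.23 and 7.49 (control) and 7.52 and 7.71 (null). Of the called genes, 25% were higher as deposited, 14.3% after median centring and 10.5% after spike centring, and of the called probe sets 47.4%, 36.4% and 25%. The adjusted p alone (limma) gave 19 lower and 7 higher genes and 24 and 17 probe sets. A fold limit of 2 left 1 lower gene and 2 lower probe sets. Shares of all genes or probe sets under these other settings are not given here, so the counts have no background beside them. Over the 12 called genes and 6 others, 199 differences kept their side of the limits, 14 called ones lost it, 2 uncalled ones gained it (Klhl5 and Kbtbd7, with spike centring, where 8 of all 42 genes gained a call, the others being Klhl8, Klhl11, Klhl15, Klhl28, Klhl35 and Klhl41; Klhl8 also gained one without control replicate 1) and 0 changed sign as a call. Klhl14 was not in the fit without dim probe sets. The 199 include fits that could not move a difference, as described above.

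Among the other lists, 33 of the recomputed counts moved by more than 1.5 times and 107 did not. The 107 include counts that were 0 and stayed 0, which say little about stability. Among the genes of CUL3, NEDD8 attachment and adaptor exchange, the 4 called lower became 7 with spike centring. They became 2 with gene means or a fold limit of 2, and 8 by the adjusted p alone. In the list of targets, partners and related genes, the 6 called lower became 10, or 3 at a fold limit of 2, and the 2 higher 1 to 4. Other BTB adaptors became 6 or 0 lower (3 as deposited) and 5 or 0 higher (1), kelch genes without BTB 0 to 4 lower (1) and 0 higher (1), and other BTB-kelch genes 1 to 2 lower (0). The cause of these moves was not tested.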

Other observations

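The protein-coding genes next to the called BTB-kelch genes were read from the RefSeq gene table (GRCm38.p6). For 11 of the 12 members a neighbour was measured, 21 neighbours in all, of which 3 were called in the member's direction and 1 in the other. Over all 18193 named genes 8.06% were called lower and 3.58% higher. Whether neighbouring genes changed together was not tested. Phospho2, next to Klhl23, differed by -0.59, Rabif, next to Klhl12, by -0.71 and Akap13, next to Klhl25, by -0.59. Nupl2, next to Klhl7, differed by -0.77 while Klhl7 rose. The neighbours of Kbtbd8, Lrig1 (0.09) and Suclg2 (0.32), and those of Klhl24, Klhl6 (0.39) and Yeats2 (0.31), were not called. These genes were named after their values were seen.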
